A study of Arabidopsis thaliana with 4 samples.

Results

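The genes described here are 9 type-A cytokinin response regulators of Arabidopsis thaliana, ARR3, ARR4, ARR5, ARR7, ARR8, ARR9, ARR15, ARR16 and ARR17, together with the cytokinin oxidase gene CKX4. They were chosen by locus from the deposited gene table, by a rule that names loci and no values, and all 10 were found among its 26784 genes. The tenth type-A gene, ARR6, lies on chromosome 5 beyond the rows held and was not analysed here. Messenger RNA was sequenced from wild-type seedlings of the Col-0 accession at 6 days post germination (dpg) and at 2 dpg, with 2 libraries per age. Seeds of both ages were kept in the dark at 4 °C for 2 days and then grown under a 12-h photoperiod at 22 °C, on Murashige and Skoog medium of reduced strength that held 0.5% sucrose. The libraries are of wild-type plants with no hormone treatment, and whole seedlings pool all organs, so in these bulk samples fewer cells of a type and less RNA per cell cannot be told apart. No label gives the hour of collection, so age and time of day cannot be told apart for genes with a daily rhythm. Whether 2 libraries of the same age stem from separate plants or plates is not labelled, and p-values here then measure a spread that could be purely technical.

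Cytokinin is perceived by membrane histidine kinases, which pass a phosphoryl group through histidine phosphotransfer proteins to response regulators in the nucleus. Type-B response regulators bind DNA and activate genes, among them the type-A response regulator genes. Type-A proteins carry the same phosphate-accepting receiver domain but no DNA-binding domain, and they dampen the response, so they are widely used as readouts of cytokinin signalling. CKX4 encodes an enzyme that degrades cytokinins, and its gene is likewise known to be induced by the hormone. In seedlings the pathway is known for restraining root growth and for promoting shoot meristem activity and chloroplast development.

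The type-A genes fall into sister pairs, and coding sequences from the RefSeq annotation (TAIR10.1) showed which members are closest. ARR3 and ARR4 shared 83.2% of aligned coding bases, ARR16 and ARR17 83.4%, ARR8 and ARR9 81.3%, and ARR7 and ARR15 79.0%, while the closest gene to ARR5 was ARR6 at 81.4%. The longest run of identical bases was 41 between ARR3 and ARR4 and also between ARR8 and ARR9, 23 between ARR16 and ARR17, and 19 between ARR7 and ARR15. The read length is not given in the sources used here, so reads shared between sisters were not counted. Each of the 10 genes has 5 coding exons in that annotation. No member overlaps another gene of the deposited table on either strand.

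The promoters of 2 sister pairs and of CKX4 are shown because they belong to the 2 sister pairs whose FPKM ratio differed most between ages, among the 3 pairs with both genes tested, and to the member with the largest rise. Each window is the 300 bases before the RefSeq gene start in TAIR10.1, on the strand of the gene, and capitals mark AGATT and AGATC, the core sequences bound by type-B response regulators, on either strand (AATCT and GATCT are their reverse complements; in AGATCT the 2 orientations of AGATC overlap and were both counted).
ARR7 (chr1:6579315-6579614, minus strand): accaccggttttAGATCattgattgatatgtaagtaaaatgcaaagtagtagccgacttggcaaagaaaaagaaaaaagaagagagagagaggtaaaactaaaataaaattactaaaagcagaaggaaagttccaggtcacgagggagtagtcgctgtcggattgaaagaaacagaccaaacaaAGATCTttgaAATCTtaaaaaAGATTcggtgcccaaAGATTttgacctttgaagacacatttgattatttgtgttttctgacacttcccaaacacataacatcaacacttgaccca
ARR15 (chr1:28133026-28133325, minus strand): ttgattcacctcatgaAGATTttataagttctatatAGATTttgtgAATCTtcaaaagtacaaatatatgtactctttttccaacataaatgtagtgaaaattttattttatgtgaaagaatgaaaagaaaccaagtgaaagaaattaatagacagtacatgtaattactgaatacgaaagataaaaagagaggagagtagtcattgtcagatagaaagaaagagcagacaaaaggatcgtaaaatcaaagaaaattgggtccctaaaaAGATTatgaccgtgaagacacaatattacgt
ARR3 (chr1:22067234-22067533, minus strand): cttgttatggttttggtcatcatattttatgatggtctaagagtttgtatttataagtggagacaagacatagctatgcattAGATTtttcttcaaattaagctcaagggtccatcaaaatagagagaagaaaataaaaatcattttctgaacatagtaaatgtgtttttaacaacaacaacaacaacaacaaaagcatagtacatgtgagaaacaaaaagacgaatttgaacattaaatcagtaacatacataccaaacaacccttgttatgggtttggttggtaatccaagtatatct
ARR4 (chr1:3444361-3444660, minus strand): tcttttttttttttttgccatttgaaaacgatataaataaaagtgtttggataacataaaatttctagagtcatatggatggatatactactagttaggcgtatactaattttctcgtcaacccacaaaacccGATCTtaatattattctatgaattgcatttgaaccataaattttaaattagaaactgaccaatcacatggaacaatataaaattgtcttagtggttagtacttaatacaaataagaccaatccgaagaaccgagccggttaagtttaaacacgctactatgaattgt
CKX4 (chr4:14565883-14566182, plus strand): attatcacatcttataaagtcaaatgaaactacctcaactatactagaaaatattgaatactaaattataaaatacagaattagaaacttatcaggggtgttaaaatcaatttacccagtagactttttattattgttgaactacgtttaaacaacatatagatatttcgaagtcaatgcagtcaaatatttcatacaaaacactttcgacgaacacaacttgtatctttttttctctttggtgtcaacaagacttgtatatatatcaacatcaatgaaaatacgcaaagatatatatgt
The ARR7 window held 3 copies of AGATT and 3 of AGATC. The ARR15 window held 4 copies of AGATT and none of AGATC. Of the 10 members, 6 had at least 1 AGATT, against 70.7% of 27443 promoters of coding genes with the same window, and 5 had at least 1 AGATC, against 31.7% of those promoters. Windows with 3 or more copies of AGATT were those of ARR7 and ARR15, a count reached by 13.8% of all promoters. Windows with 3 or more copies of AGATC were those of ARR7 and ARR16, a count reached by 3.2%. CKX4 had neither sequence in this window, ARR3 had 1 AGATT and ARR4 had 1 AGATC. These are matches of letters only and say nothing of whether a factor binds there.

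The library totals recovered from the deposited values were 22745278 and 18330153 reads for 6 dpg replicates 1 and 2 and 26570983 and 20587872 reads for 2 dpg replicates 1 and 2. Levels of a gene in each library are given in CPM, reads scaled to the library total after its adjustment by a TMM factor (trimmed mean of M values). Levels of different genes are compared only in the authors' FPKM, which also divide by length. Changes are log2 fold changes, 6 dpg over 2 dpg, from edgeR's quasi-likelihood test on all 16160 tested genes, called at a Benjamini-Hochberg adjusted p under 0.05. Between ages 9153 genes were called, and the libraries of the 2 ages did not overlap for 80.6% of tested genes. The labelled tissue held RNA of green tissue and of root at both ages. The 4 green tissue genes listed (RBCS1A, LHCB1.2, LHCB6 and CA1) summed to 18900 to 20400 CPM at 6 dpg and 31000 to 31300 CPM at 2 dpg. LHCB1.2 and LHCB6 were called as lower at 6 dpg, and RBCS1A and CA1 were not called (edgeR adjusted p = 0.0748 and 0.12). These 4 genes do not tell leaves from cotyledons. The 5 root genes listed (CASP1, CASP2, EXPA7, EXPA18 and NRT2:1) summed to 41.3 to 50.1 CPM at 6 dpg and 179 to 231 CPM at 2 dpg, and all 5 fell.

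Of the 10 genes, 3 rose with age (ARR7, ARR8 and CKX4), 3 fell (ARR3, ARR15 and ARR16), 3 were not called (ARR4, ARR5 and ARR9), and ARR17 had too few reads to be tested. Among all tested genes 56.6% were called, 28.3% as higher and 28.4% as lower at 6 dpg, so the share of members called is near that of any gene. Members with a called change of 2-fold or more numbered 5, where 24.1% of all tested genes had one. The 9 tested members had a median log2 fold change of 0.22, beside 0.00 for all tested genes. ARR15 and CKX4 passed the filter on low counts through the age at which they were higher, with both libraries of that age and 1 of the other age above it. In the authors' deposited table the same 6 members have an adjusted p under 0.05.

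**Figure D1:**
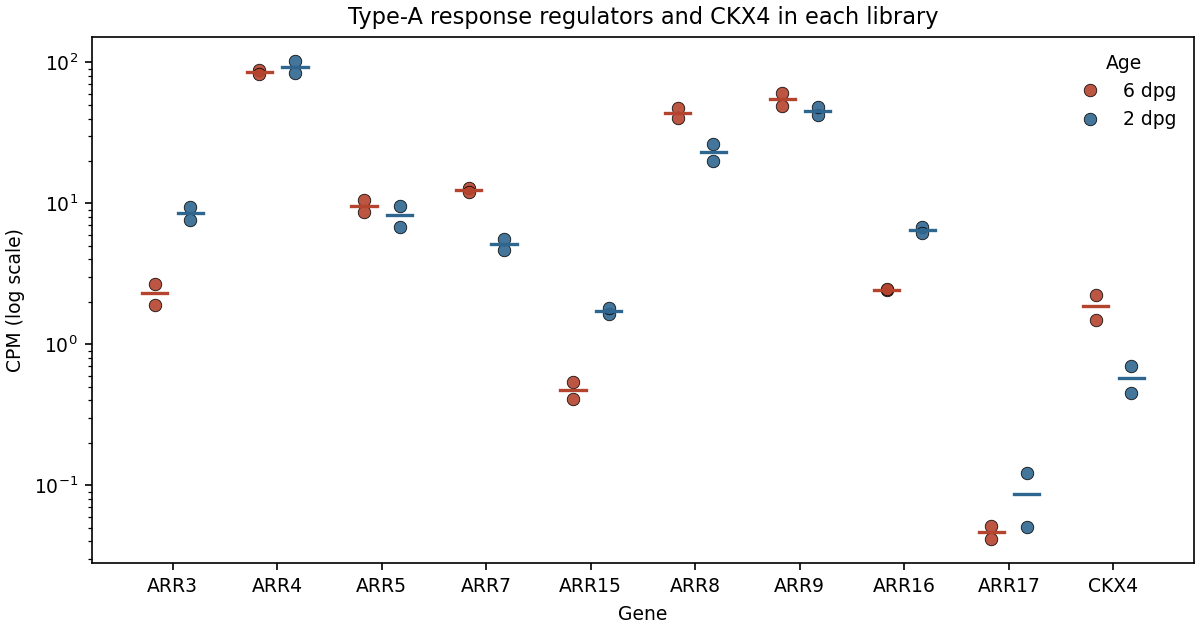
Expression of the 9 type-A genes and CKX4 in each library, in CPM on a log scale; points are libraries (2 per age, 6 dpg left of 2 dpg) and short lines are the means of an age. ARR3, ARR15 and ARR16 sit lower at 6 dpg, ARR7, ARR8 and CKX4 higher, and the ages overlap for ARR4, ARR5 and ARR17.

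**Figure D2:**
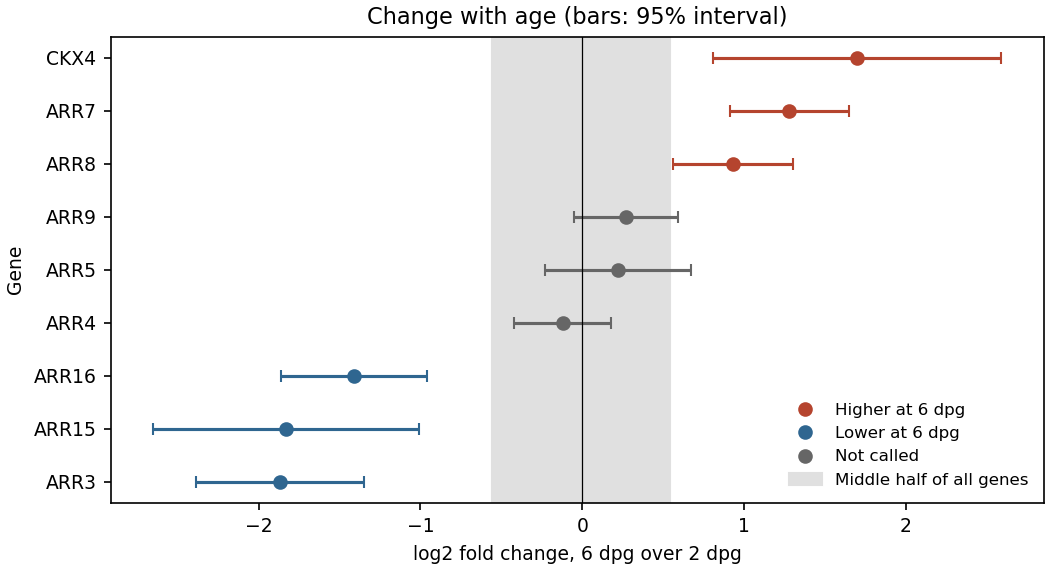
Log2 fold change of the 9 tested members, 6 dpg over 2 dpg, with 95% intervals from the edgeR fit; the grey band spans the middle 50% of all tested genes, -0.56 to 0.54. The intervals of CKX4, ARR7 and ARR8 lie above 0 and those of ARR16, ARR15 and ARR3 below 0.

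ARR7 and ARR15 are sister genes that WUSCHEL, the stem cell regulator of the shoot meristem, is known to repress, and both are known from the root stem cell niche of the embryo. They moved in opposite directions. ARR7 (AT1G19050, chromosome 1, 6577833 to 6579178, minus strand as listed by the authors) had 12.9 and 12.0 CPM in the 6 dpg libraries, against 4.67 and 5.63 CPM in the 2 dpg libraries. Both 6 dpg libraries lay above both 2 dpg libraries, with a log2 fold change of 1.28 ± 0.17 (SE, edgeR adjusted p = 0.000268), or 2.43-fold. ARR15 (AT1G74890, chromosome 1, 28131590 to 28132710, minus strand) had 0.541 and 0.409 CPM in the 6 dpg libraries, against 1.64 and 1.81 CPM in the 2 dpg libraries. The ages did not overlap, and ARR15 fell by 1.83 ± 0.36 (log2 scale with SE; edgeR adjusted p = 0.00252), or 3.55-fold. These are few reads, 21 over both 6 dpg libraries and 76 over both 2 dpg libraries, for a ratio of 0.281 with a 95% exact interval of 0.165 to 0.46 that covers counting error only. The FPKM of ARR7 was 18.3 and 22.6 times that of ARR15 in the 6 dpg libraries, against 2.19 and 2.39 times in the 2 dpg libraries. This ratio is taken within a library, so its difference does not depend on how libraries are scaled to each other. It was 8.87-fold larger at 6 dpg, with no overlap between ages (exact permutation test on the log2 ratio, two-sided p = 0.333, the smallest that 2 against 2 libraries can give).

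ARR3 and ARR4 also diverged, by the fall of one of them. Both are known as regulators of the period of the circadian clock, and ARR4 binds the photoreceptor phytochrome B. ARR3 (AT1G59940, chromosome 1, 22065617 to 22066973, minus strand) had 2.70 and 1.89 CPM in the 6 dpg libraries, against 9.38 and 7.59 CPM in the 2 dpg libraries. Both 6 dpg libraries were low, and ARR3 fell by 1.87 ± 0.23 (log2 scale with SE; edgeR adjusted p = 0.000206) or 3.66-fold. This fall was close to that of ARR15, whose fall was the larger without 2 dpg replicate 1 (-1.90 for ARR15 and -1.70 for ARR3) and without 6 dpg replicate 2 (-1.65 and -1.64). ARR4 (AT1G10470, chromosome 1, 3442327 to 3443957, minus strand) had 88.4 and 83.3 CPM in the 6 dpg libraries, against 103 and 84.1 CPM in the 2 dpg libraries. The ages overlapped, since only 2 dpg replicate 1 was clearly higher, and the log2 fold change was -0.12 with a 95% interval of -0.42 to 0.17 (edgeR adjusted p = 0.448). Without that library it was 0.03, so no direction is given for ARR4. The FPKM of ARR4 was 26.9 and 36.2 times that of ARR3 in the 6 dpg libraries, against 9.02 and 9.14 times in the 2 dpg libraries, a 3.44-fold larger ratio at 6 dpg without overlap (exact permutation test, two-sided p = 0.333, the smallest possible).

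In the pair ARR8 and ARR9, known for weaker induction by cytokinin than other type-A genes, ARR8 rose. ARR8 (AT2G41310, chromosome 2, 17221933 to 17224427, plus strand) had 47.7 and 40.1 CPM in the 6 dpg libraries, against 19.9 and 26.3 CPM in the 2 dpg libraries. The ages did not overlap, and the log2 fold change was 0.93 ± 0.16 (SE, edgeR adjusted p = 0.00128), or 1.90-fold. ARR9 (AT3G57040, chromosome 3, 21109614 to 21111432, plus strand) had 60.4 and 49.1 CPM in the 6 dpg libraries, against 42.4 and 48.7 CPM in the 2 dpg libraries. The lower 6 dpg library was barely above the higher 2 dpg library, and the log2 fold change of 0.27, with a 95% interval of -0.05 to 0.59, was not called (edgeR adjusted p = 0.134). ARR9 was called as higher without 2 dpg replicate 2 (log2 fold change 0.36, edgeR adjusted p = 0.0488). The FPKM of ARR9 was 1.71 and 1.65 times that of ARR8 in the 6 dpg libraries, against 2.87 and 2.49 times in the 2 dpg libraries, so ARR8 came closer to its sister with age (exact permutation test, two-sided p = 0.333, the smallest possible).

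**Figure D3:**
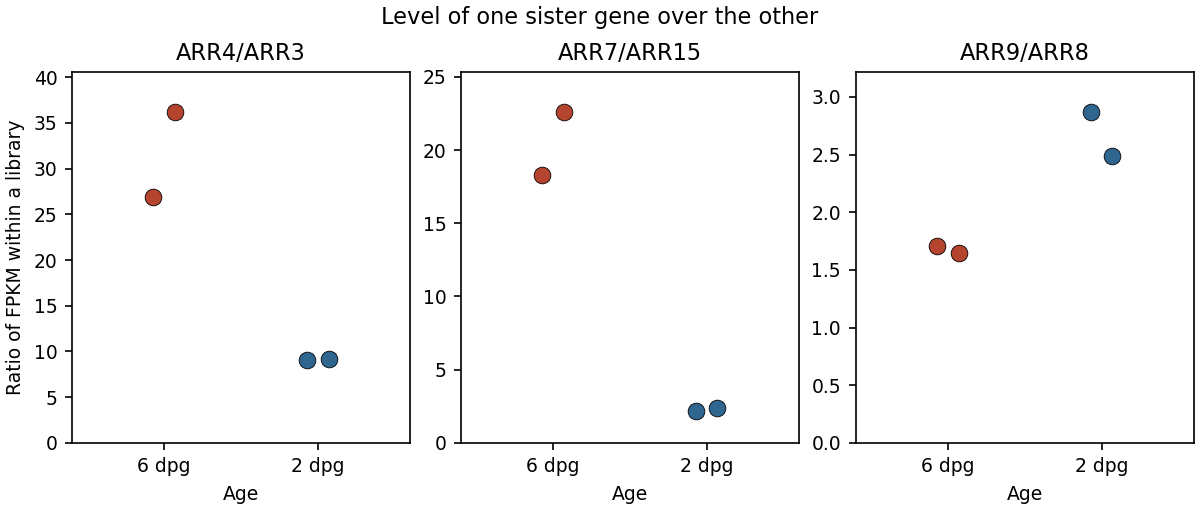
Ratio of the FPKM of one sister gene to the other within each library, on linear axes that start at 0, for ARR4 over ARR3, ARR7 over ARR15 and ARR9 over ARR8; points are libraries, 6 dpg left of 2 dpg. The ARR7 to ARR15 ratio stood at 18.3 and 22.6 at 6 dpg and at 2.19 and 2.39 at 2 dpg.

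ARR16 and ARR17 are known from the stomatal lineage of the leaf epidermis. ARR16 (AT2G40670, chromosome 2, 16970230 to 16971234, plus strand) had 2.41 and 2.46 CPM in the 6 dpg libraries, against 6.80 and 6.13 CPM in the 2 dpg libraries. The ages lay far apart with close replicates, and ARR16 fell by 1.41 ± 0.20 (log2 scale with SE; edgeR adjusted p = 0.000421), or 2.66-fold. ARR17 (AT3G56380, chromosome 3, 20905480 to 20906368, plus strand) had 1 read in each 6 dpg library, against 3 and 1 reads in the 2 dpg libraries. That is at or under the floor of 3 reads in every library (0.123 to 0.154 CPM), and the ratio of 0.508 had a 95% exact interval of 0.046 to 3.55, so no difference was detectable at this depth. Of 6 stomatal lineage markers, MUTE, TMM, EPF1, EPF2 and POLAR fell and FAMA, which acts in guard cell formation, rose. Among all tested genes 28.4% were called as lower and 28.3% as higher at 6 dpg. The summed level of the 6 markers was 56.7 to 63.9 CPM at 6 dpg and 57.4 to 57.9 CPM at 2 dpg, with no marker at 0. MUTE and POLAR have no adjusted p under 0.05 in the authors' deposited table. The part of stomatal lineage cells in the fall of ARR16 was not tested.

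ARR5 (AT3G48100, chromosome 3, 17758427 to 17760874, minus strand), whose promoter is a standard reporter of the cytokinin response, did not pass the test. It had 10.5 and 8.70 CPM in the 6 dpg libraries, against 9.63 and 6.84 CPM in the 2 dpg libraries. The ages overlapped, and the log2 fold change was 0.22 with a 95% interval of -0.23 to 0.67 (edgeR adjusted p = 0.367). Without 2 dpg replicate 2 the value was -0.01.

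CKX4 (AT4G29740, chromosome 4, 14566265 to 14569332, plus strand) had the largest rise among the tested members, from low levels. It had 1.50 and 2.25 CPM in the 6 dpg libraries, against 0.451 and 0.704 CPM in the 2 dpg libraries. The ages did not overlap, and the log2 fold change was 1.70 ± 0.39 (SE, edgeR adjusted p = 0.0058), or 3.25-fold. The reads behind it were 80 over both 6 dpg libraries and 25 over both 2 dpg libraries, for a ratio of 3.25 with a 95% exact interval of 2.05 to 5.32.

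Other genes fell with age too, and 28.4% of all tested genes were called as lower at 6 dpg. Of 6 root tip markers 2 fell, WOX5 and BRN1, and none rose, with a summed level of 46.2 to 49.5 CPM at 6 dpg and 61.0 to 62.4 CPM at 2 dpg. Of 5 shoot meristem markers 3 were tested and 2 fell, KNAT1 and CLV1, at 61.5 to 73.2 CPM at 6 dpg and 87.0 to 88.4 CPM at 2 dpg. Of 4 xylem markers 2 fell, XCP1 and XCP2, at 72.6 to 73.4 CPM at 6 dpg and 96.7 to 105 CPM at 2 dpg. Among these falls, CLV1 (edgeR adjusted p = 0.0494) and XCP2 have no adjusted p under 0.05 in the authors' deposited table. Marker calls were not followed under other settings. The 5 seed reserve genes summed to 0.0832 to 0.154 CPM at 6 dpg and 0.451 to 5.58 CPM at 2 dpg, and none of them passed the filter on low counts. The upper value is that of 2 dpg replicate 2, which stood apart with 58 reads of SESA3 and 30 of OLEO1, against 1 and 2 reads in 2 dpg replicate 1. No marker of these lists was at 0 in all 4 libraries. CLV3 and OLEO1 were at 0 in both 6 dpg libraries, and WUS was at 0 in both 2 dpg libraries, with 2 and 1 reads in the 6 dpg libraries. The part of the root, root tip, meristem, xylem and green tissue cells in the changes of the type-A genes was not tested.

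Gene length moved with the comparison as well, with a median log2 fold change of -0.28 in the 3272 tested genes between 500 and 1000 bp long, and of 0.27 in the 4465 genes of 2000 bp or more. The lengths of the members in the table run from 462 bp (ARR17) to 1951 bp (CKX4). With a length trend removed from each library, ARR7 rose by 1.52, ARR8 by 0.92 and CKX4 by 1.65 on the log2 scale. The values of ARR3, ARR15 and ARR16 were then -1.73, -1.49 and -1.07, and all 6 members called without that step were called again in the same direction.

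Compared per length, the type-A genes spanned a wide range of levels. At 6 dpg the order by mean FPKM was ARR4, ARR9, ARR8, ARR7, ARR5, ARR16, ARR3, CKX4, ARR15 and ARR17, from 71.4 ± 2.56 FPKM for ARR4 through 16.4 ± 0.67 FPKM for ARR7 to 0.107 FPKM for ARR17 (SD, n = 2). At this age CKX4 and ARR15 were the only neighbours whose libraries overlapped. At 2 dpg the order was ARR4, ARR9, ARR8, ARR16, ARR3, ARR7, ARR5, ARR15, CKX4 and ARR17, from 68.9 ± 7.21 FPKM for ARR4 through 6.03 ± 1.01 FPKM for ARR7 to 0.175 FPKM for ARR17. At 2 dpg libraries overlapped between ARR8 and ARR16, between ARR7 and ARR5, and between CKX4 and ARR17. ARR7 thus had rank 4 at 6 dpg and rank 6 at 2 dpg, below ARR16 and ARR3 at the younger age. ARR4, ARR9 and the next highest type-A gene together made up 81.8 and 81.6% of the summed type-A FPKM in the 6 dpg libraries. In the 2 dpg libraries these shares were 77.6 and 78.3%. The next highest gene was ARR8, except in 2 dpg replicate 1, where ARR16 (7.02%) was above ARR8 (6.89%). The summed FPKM of the 9 type-A genes was 181 and 161 in the 6 dpg libraries, against 146 and 144 in the 2 dpg libraries. ARR7 contributed 9.31 and 9.84% of that sum in the 6 dpg libraries, against 3.65 and 4.69% in the 2 dpg libraries. ARR16 contributed 2.31 and 2.66% in the 6 dpg libraries, against 7.02 and 6.75% in the 2 dpg libraries. These sums use the authors' FPKM, which carry no TMM factor, and are given as a description. The TMM factors were 1.057 and 1.066 for the 6 dpg libraries and 0.919 and 0.966 for the 2 dpg libraries. Dividing by them would bring the sums of the 2 ages closer, so no rise of the sum is read here.

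Genes with a pattern like that of CKX4, the called member with the largest rise, and like that of ARR3, by a narrow margin over ARR15 the called member with the largest fall, were found by the Euclidean distance of mean-centred log2 CPM over the 4 libraries, among 6722 genes with a symbol and a mean of 1 CPM or more. Closest to CKX4 were GLUR2, a glutamate receptor-like gene, CNBT1, a cyclic nucleotide-gated channel gene, and ABCG21, an ABC transporter gene, at distances of 0.0449, 0.0721 and 0.127 and log2 fold changes of 1.62, 1.54 and 1.61. Closest to ARR3 were RHS16, a root hair kinase gene, RGL2, a DELLA repressor gene, and SDS, a meiotic cyclin-like gene, at distances of 0.127, 0.128 and 0.150 and log2 fold changes of -1.83, -1.80 and -1.96. With 4 libraries such a likeness reflects little more than the size of the change.

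The rest of the cytokinin pathway was read from a list of 65 genes by role, of which 52 were held and 39 tested. Of these 12 rose and 9 fell, 53.8% of those tested, where 56.6% of all tested genes were called. The median log2 fold change of the 39 was 0.01. By direction, 28.3% of all tested genes were called as higher and 28.4% as lower. Each role holds few tested genes, so no direction is read for a role. The 2 receptors held moved apart. AHK3, known for its part in leaf longevity, was at 146 ± 3.76 CPM at 6 dpg and 87.3 ± 12.0 CPM at 2 dpg (log2 fold change 0.74, edgeR adjusted p = 0.00132, but a log2 fold change of 0.35, still called, with the length trend removed). AHK4, the receptor known from the root vasculature, was at 23.3 ± 1.89 CPM at 6 dpg and 34.5 ± 2.97 CPM at 2 dpg (log2 fold change -0.56, edgeR adjusted p = 0.00518, and 0.0662 without 6 dpg replicate 2, but a log2 fold change of -0.97 with the length trend removed). Of the 4 phosphotransfer genes tested, AHP5 and AHP2 fell (log2 fold change -0.73 and -0.56, the second -0.33 with the length trend removed) and none rose. Of the 6 type-B regulator genes tested, 2 rose and 2 fell. ARR1 was at 134 ± 1.47 CPM at 6 dpg and 72.8 ± 2.39 CPM at 2 dpg, a rise of 0.88 on the log2 scale. ARR2 rose by 0.56, a call lost without 6 dpg replicate 2 and with the length trend removed (edgeR adjusted p = 0.0687 and 0.0553). ARR11 was at 8.17 ± 0.626 CPM at 6 dpg and 16.1 ± 1.24 CPM at 2 dpg, and ARR10 fell by 0.37, a call lost when 2 dpg replicate 2, 6 dpg replicate 1 or else 6 dpg replicate 2 was left out (edgeR adjusted p = 0.063, 0.16 and 0.165), with no composition factors (0.235) and under DESeq2 (0.135).

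Of 5 tested synthesis genes 2 rose and none fell, where 28.3% of all tested genes were called as higher and 28.4% as lower. IPT3, an isopentenyltransferase of the phloem that responds to nitrate, was at 14.9 ± 0.396 CPM at 6 dpg and 9.61 ± 0.371 CPM at 2 dpg (log2 fold change 0.63, edgeR adjusted p = 0.00388). IPT2, which modifies transfer RNA, was at 5.56 ± 0.552 CPM at 6 dpg and 2.88 ± 0.382 CPM at 2 dpg. Of 5 tested LOG genes, whose products release the active base, LOG5 rose by 1.27 and LOG1 fell by 0.34 on the log2 scale. The LOG1 call was lost without 2 dpg replicate 2 and without either 6 dpg library (edgeR adjusted p = 0.0632, 0.254 and 0.126). It was also lost with no composition factors, with the length trend removed, with a replicate block and under DESeq2 (adjusted p = 0.28, 0.162, 0.0508 and 0.123). Beside CKX4, 2 of 3 other tested oxidase genes rose and none fell. CKX5 rose by 0.68 on the log2 scale (edgeR adjusted p = 0.0496), a call lost without 2 dpg replicate 1 or 6 dpg replicate 1 (0.245 and 0.207 by the same test), with the length trend removed (0.156) and under DESeq2 (0.152). CKX6 rose by 0.59, a call lost without 2 dpg replicate 1 and without either 6 dpg library (edgeR adjusted p = 0.16, 0.0787 and 0.117), with the length trend removed (0.0519) and under DESeq2 (0.172).

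Of the 5 transport genes tested 2 fell and 1 rose, and of the 3 conjugation genes 1 fell. ABCG14, which exports cytokinin from the root towards the shoot, was at 17.7 ± 0.282 CPM at 6 dpg and 31.3 ± 0.00373 CPM at 2 dpg (log2 fold change -0.82). The nucleoside transporter gene ENT3 fell by 0.76 on the log2 scale. The importer gene PUP14 rose by 0.35, a call lost without 6 dpg replicate 1 or 6 dpg replicate 2 (edgeR adjusted p = 0.109 and 0.231). UGT85A1, which glucosylates zeatin, was that conjugation gene, with a log2 fold change of -0.48, a call lost without either 6 dpg library (edgeR adjusted p = 0.112 and 0.067) and with no composition factors (0.071). Of 6 tested response factor genes 3 rose and none fell, beside 28.3% of all tested genes called as higher and 28.4% as lower. CRF5 was at 15.7 ± 0.726 CPM at 6 dpg and 5.87 ± 0.974 CPM at 2 dpg, and CGA1, a GATA factor of chloroplast development, was at 85.6 ± 0.343 CPM at 6 dpg and 39.7 ± 3.90 CPM at 2 dpg (log2 fold change 1.41 and 1.11, edgeR adjusted p = 0.000152 and 0.000117). With scaling on 169 genes of cytosolic ribosomal proteins, whose own median was -0.35, the median of all genes moved to 0.29, and 1 of these pathway genes, ARR11, was still called as lower. Of the 21 pathway calls, 15 also have an adjusted p under 0.05 in the authors' deposited table, and the 6 that do not are ARR10, LOG1, CKX5, CKX6, UGT85A1 and PUP14.

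**Figure D4:**
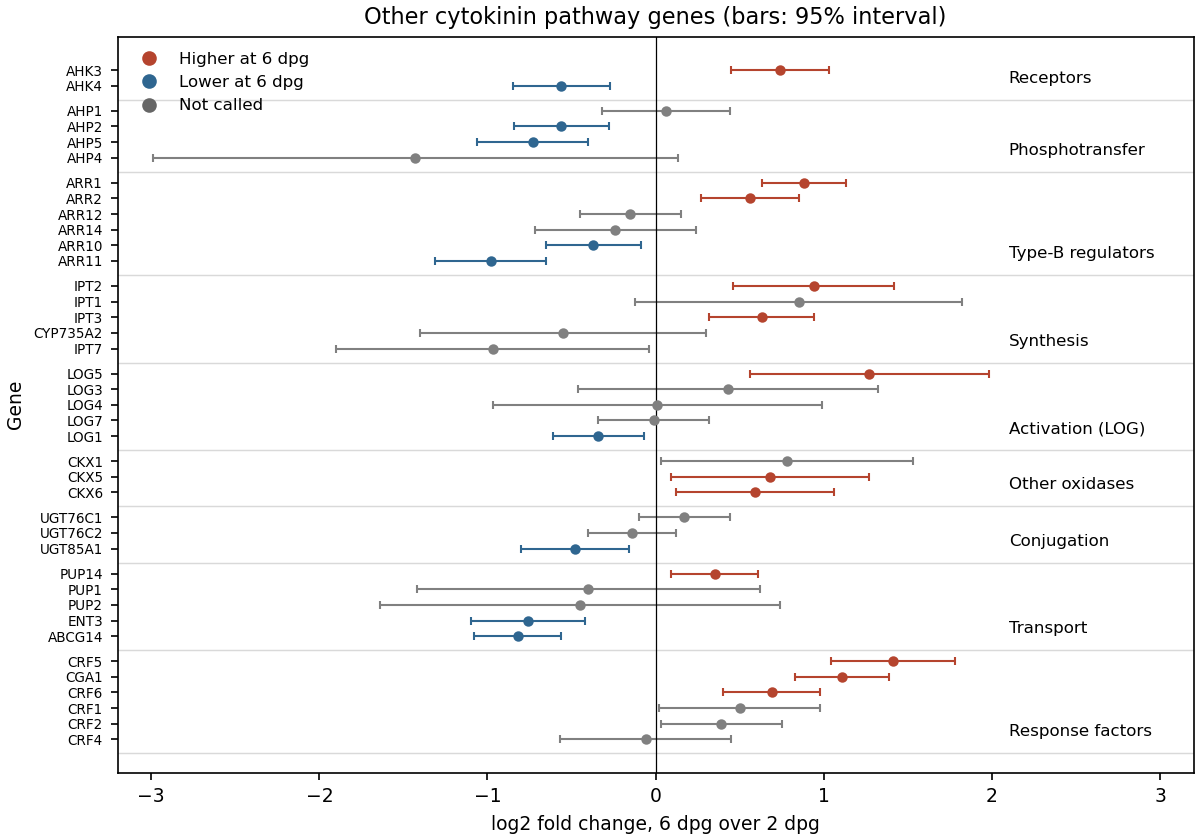
Log2 fold change of the 39 tested cytokinin pathway genes outside the type-A group and CKX4, 6 dpg over 2 dpg, by role, with 95% intervals from the edgeR fit. In all 12 rose and 9 fell, and each direction occurs among the receptors, type-B regulators, activation and transport genes.

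The 6 calls among the members held under each setting tried. Over 12 alternatives ARR7 ranged over log2 fold changes of 1.15 to 1.56, ARR8 of 0.74 to 1.19 and CKX4 of 1.40 to 2.03, and each stayed called as higher. ARR3 ranged over -2.16 to -1.57, ARR15 over -2.05 to -1.49 and ARR16 over -1.49 to -1.07, and each stayed called as lower, also under ribosomal protein scaling.

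**Figure D5:**
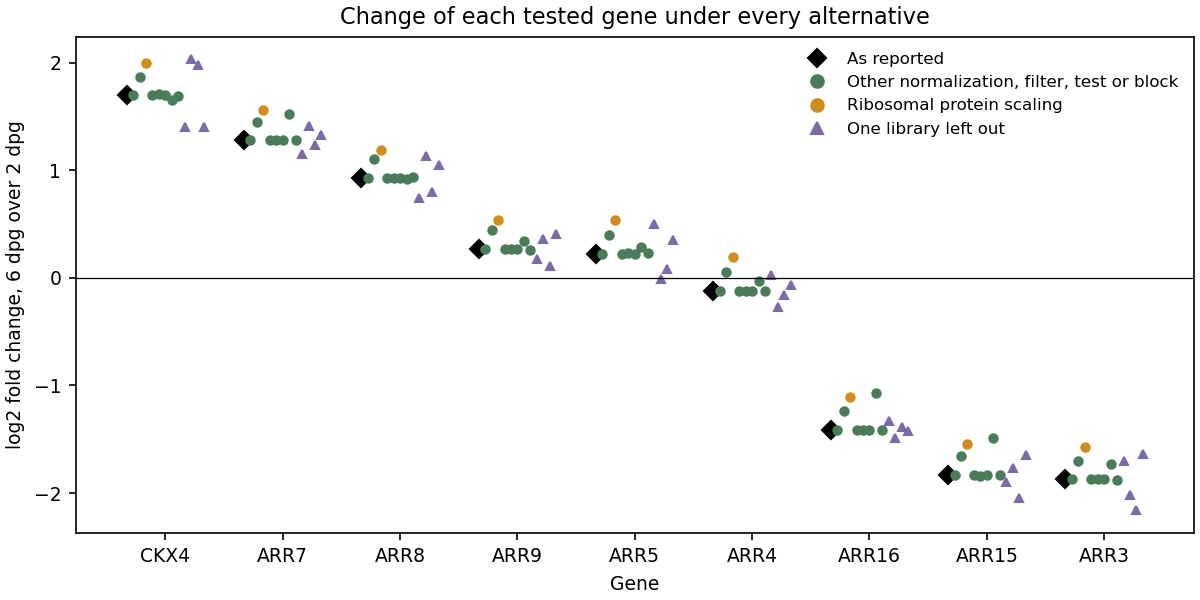
Log2 fold change of each tested member, 6 dpg over 2 dpg, as reported (black diamonds), under another normalization, filter, test or block (circles, ribosomal protein scaling in orange) and with each library left out (triangles). The 6 called members keep their side of 0 throughout, while ARR4 and ARR5 cross it.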

How the data were processed

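Per the submitters' processing notes, the tools were TopHat2 2.0.12, Bowtie2 2.2.3, HTSeq 0.6.1, DESeq 1.18.0 and CASAVA 1.8; what each did, and with which build and annotation, is not given in the sources used here. Per the labels' protocols, TRIzol RNA went into NEBNext Ultra RNA libraries, a kit that keeps no strand. Per the file headers, the table gives read counts and FPKM for each library, the authors' mean FPKM for each age (not used), 2 further columns headed for other days (not used) and their deposited p-value and adjusted p-value. A list of 1369 transcription factors and regulators was deposited too, and 7 type-A members are in it.

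The rows held end on chromosome 5 at position 3070933 and make up 79.9 to 81.0% of the library totals, which were recovered from count, FPKM and length (66.7 to 67.8% of genes with over 200 reads gave the same total within 0.01%). Counts were fitted with edgeR 4.0.16 in R 4.3.3 (TMM, filterByExpr with a minimum count of 10, age as the only term). The filter removed 10624 genes. DESeq2 1.42.0 was an alternative test. Replicates differed beyond sampling noise (chi-square over genes, divided by its degrees of freedom, of 6.01 for 6 dpg and 16.49 for 2 dpg). On counts simulated for these 16160 genes the fit called 94% of 100 genes changed by 2 on the log2 scale, 74% of 100 changed by 1 and 0.1% of the 15960 unchanged genes. Far fewer genes were changed there than the 9153 called between ages, so these rates do not carry over to the calls given here. Table positions carry no named build; promoters were read from RefSeq TAIR10.1 at its own coordinates, and 26407 loci matched it. Intervals cover counting error only where called exact.

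Members, lists and tests were chosen with earlier results of these data known. Named genes were the 10 members; in each pathway role, at most 2 called genes per direction, by size of change; the receptors, IPT3, and the 3 genes most like each of CKX4 and ARR3.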

Additional observations from a re-analysis of the deposited data

How the results depend on the processing

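The 9 tested members gave 108 values over 12 alternatives, of which 101 kept their direction and side of the threshold. The exceptions were ARR4, ARR5 and ARR9, none of them called, and their causes were not tested. ARR4 turned to 0.05 with no composition factors and 0.19 under ribosomal protein scaling, and ranged from -0.27 to 0.03 with 1 library left out. ARR5 ranged from -0.01 to 0.50 with 1 library left out. ARR9 became called at 0.44 and 0.54 under these 2 scalings. Members called stayed at 6 or 7. Row sums as library size returned the member values of the reported fit, since TMM factors absorb the library total. That setting is therefore no separate check, and scaling by DESeq2 size factors changed the member values very little. Under ribosomal protein scaling 2159 genes were lower in place of 4585, and 1 of the other pathway genes in place of 9. The share of calls that were higher was 49.9%, but 61.7% with no composition factors and 71.1% under ribosomal protein scaling. Both scalings shift all genes upward by construction. Ribosomal protein scaling also widened the standard errors, for ARR1 from 0.11 to 0.22 and for ABCG14 from 0.12 to 0.25. Under it 7471 genes were called in either direction, so the lost calls do not follow from the shift alone. Over fits with 1 library left out, where a lone library is assumed to vary like the others, 6951 to 9497 genes were called, 6 or 7 members and 16 to 20 other pathway genes. The 26 other named genes gave 312 values, of which 37 lost the call and none turned. A replicate block gave 9099 genes in place of 9153, 6 members and a CKX4 value of 1.69. The replicate differences were not correlated between ages across genes (r = -0.01). That cannot exclude a batch shared by libraries of the same replicate number, and the labels name none. Low counts limit ARR15, ARR17 and CKX4.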

Other observations

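Some cytokinin and meristem genes below the filter had reads mainly at one age, and they were chosen after their values were seen. LOG2, a cytokinin-activating enzyme gene, had 0 and 2 reads in the 6 dpg libraries, against 5 and 16 reads in the 2 dpg libraries. CLV3, the stem cell peptide gene of the shoot meristem, had 0 reads in both 6 dpg libraries, against 4 and 8 reads in the 2 dpg libraries. WUS, which promotes the stem cells of the shoot meristem, had 2 and 1 reads in the 6 dpg libraries, against 0 reads in both 2 dpg libraries. AHP4, a phosphotransfer gene that was tested and not called, differed within its age, at 2 and 18 reads in the 6 dpg libraries, against 26 and 30 reads in the 2 dpg libraries. Of the 52 pathway genes held, 8 had 3 or fewer reads over all 4 libraries.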
